A study of Mus musculus with 24 samples.

Results

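Fkbp5 and 7 other genes that are known targets of steroid hormone receptors, or encode such a receptor, were followed through mouse skin of 6 groups. The 8 genes are Fkbp5, Tsc22d3, Zbtb16, Sgk1, Klf9, Mt1, Mt2 and Nr3c1, and all 8 passed the filter on low values. They were chosen by name out of 18892 genes in the expression table, with earlier results of these data known. Shares over all tested genes are therefore set beside counts for scale only. Skin came from 24 mice, 4 per group, killed at day 10 or day 15 of daily injections. Control mice received saline injections and bare solvent on the skin. Model mice received injections of dihydrotestosterone (DHT), the potent androgen made from testosterone, with solvent on the skin. Treatment mice received DHT injections and, on the skin, an extract of Hanlianxiang (HLX), a traditional Chinese herbal formula. Saline injection and solvent were thus given to control mice, but no group received the extract without DHT. Strain, sex, age, doses and the body site of the skin are not given in the sources used here. Poly(A) RNA was sequenced from whole skin, in which fewer cells of a type and less RNA per cell cannot be told apart.

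Steroid hormone receptors such as the glucocorticoid receptor are related hormone-activated transcription factors, several of which recognise the same DNA element, an inverted repeat of a short half-site. The unliganded receptor is held by heat shock protein 90 and its co-chaperones. Hormone releases it to the nucleus, where it switches on genes such as Fkbp5. Fkbp5 protein joins the same chaperone complex and lowers the hormone affinity of the glucocorticoid receptor, so that its induction is a classical feedback loop, and androgens also induce the gene in many cells. Because several receptors share this element, none of these genes reports on a single receptor. In skin, glucocorticoids restrain inflammation and growth, and androgens act on the hair follicle and the sebaceous gland.

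Expression is given as FPKM, the fragments of a gene scaled by its length and by the depth of the library, which allows levels to be compared between genes. Recovered totals ran from 37048896 to 41117262 reads per library, and each of the 8 genes had 394 or more reads in every library. Marker genes of skin cell types were present in all groups, but some libraries stood apart. Kidney genes were found in the control and model libraries of day 10, at a summed 17.3 to 28.8 FPKM for 8 genes. In the other 16 libraries the sum was at most 0.165, with Umod and Kap listed at 0 there. The summed level of 4 Y-linked genes was 28.3 FPKM in treatment replicate 3 of day 10 and 22.3, 22.3 and 33.4 in treatment replicates 1, 2 and 4 of day 15, against 39.2 to 50.6 in the other 20 libraries. Neutrophil genes summed to 3087 FPKM in model replicate 3 of day 15, against 147 to 328 in the other model mice of that day. Treatment replicate 3 of day 15 had the lowest fibroblast sum of all libraries, 2742 FPKM.

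The element and the metal-responsive motif of the metallothionein genes were looked for in the 250 bases before the annotated transcript starts of RefSeq in the mouse assembly GRCm38.p6. The table holds 13 such windows for 6 of the 8 genes. No window of Zbtb16 or Nr3c1 was used here. Windows of 5 genes are shown in the gene's own direction, because they differ in the motifs they hold while their genes differ in how they moved. Tsc22d3 has 3 windows and Sgk1 has 6, and the one shown of each was chosen for its matches. Capitals mark AGAACA or its reverse complement in the first 3 genes, and the metal-responsive core TGCGCNC or TGCACNC, on either strand, in the last 2.
Fkbp5, chr17:28486150-28486399, minus strand: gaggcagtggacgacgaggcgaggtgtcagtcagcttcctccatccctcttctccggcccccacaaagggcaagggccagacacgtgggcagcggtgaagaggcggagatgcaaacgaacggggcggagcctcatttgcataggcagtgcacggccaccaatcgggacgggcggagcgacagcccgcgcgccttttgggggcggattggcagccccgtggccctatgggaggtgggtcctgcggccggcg
Tsc22d3, window 2, chrX:140600523-140600772, minus strand: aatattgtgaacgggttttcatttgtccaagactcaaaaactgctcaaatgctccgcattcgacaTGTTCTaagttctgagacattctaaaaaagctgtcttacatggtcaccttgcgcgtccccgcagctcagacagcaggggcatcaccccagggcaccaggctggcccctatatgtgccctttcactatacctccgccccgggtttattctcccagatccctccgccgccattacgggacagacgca
Sgk1, window 5, chr10:21993640-21993889, plus strand: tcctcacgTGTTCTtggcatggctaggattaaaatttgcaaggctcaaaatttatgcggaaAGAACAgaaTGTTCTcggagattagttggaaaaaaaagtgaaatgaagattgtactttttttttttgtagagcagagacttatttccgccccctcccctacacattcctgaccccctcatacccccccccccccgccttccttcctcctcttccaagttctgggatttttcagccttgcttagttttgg
Mt1, chr8:94178839-94179088, plus strand: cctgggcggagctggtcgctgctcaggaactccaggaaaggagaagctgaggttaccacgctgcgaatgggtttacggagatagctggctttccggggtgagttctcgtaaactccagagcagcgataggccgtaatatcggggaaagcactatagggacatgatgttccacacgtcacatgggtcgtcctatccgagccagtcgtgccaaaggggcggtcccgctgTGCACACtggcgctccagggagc
Mt2, chr8:94172368-94172617, plus strand: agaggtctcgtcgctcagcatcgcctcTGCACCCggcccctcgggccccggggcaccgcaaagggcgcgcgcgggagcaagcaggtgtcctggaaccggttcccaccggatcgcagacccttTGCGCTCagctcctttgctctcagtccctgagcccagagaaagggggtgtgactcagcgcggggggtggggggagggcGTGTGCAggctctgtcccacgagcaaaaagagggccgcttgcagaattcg
Window 5 of Sgk1 held the full inverted repeat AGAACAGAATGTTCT at bases -189 to -175 from the start. Such a repeat, AGAACA and its reverse complement with any 3 bases between them, occurred in 3 of 32851 promoter windows of the genome (0.00913%). A further half-site lay at -242 to -237 of the same window. Windows 1 and 4 of Sgk1 held 1 half-site each and its other 3 windows none. The Tsc22d3 window shown held 1 half-site at -185 to -180, and its other 2 windows none. AGAACA on either strand was present in 16.1% of all windows, a share per window that is not the comparison for the best of several windows of a gene. The single windows of Fkbp5 and Klf9 held none of these motifs. The Mt2 window held 3 metal-responsive cores, a number reached by 1.26% of windows, and the Mt1 window held 1, at -23 to -17, where 21.4% of windows hold at least 1. Both strands were searched. These are letter matches in a short window and describe no binding, and bases outside the windows were not searched.

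**Figure D1:**
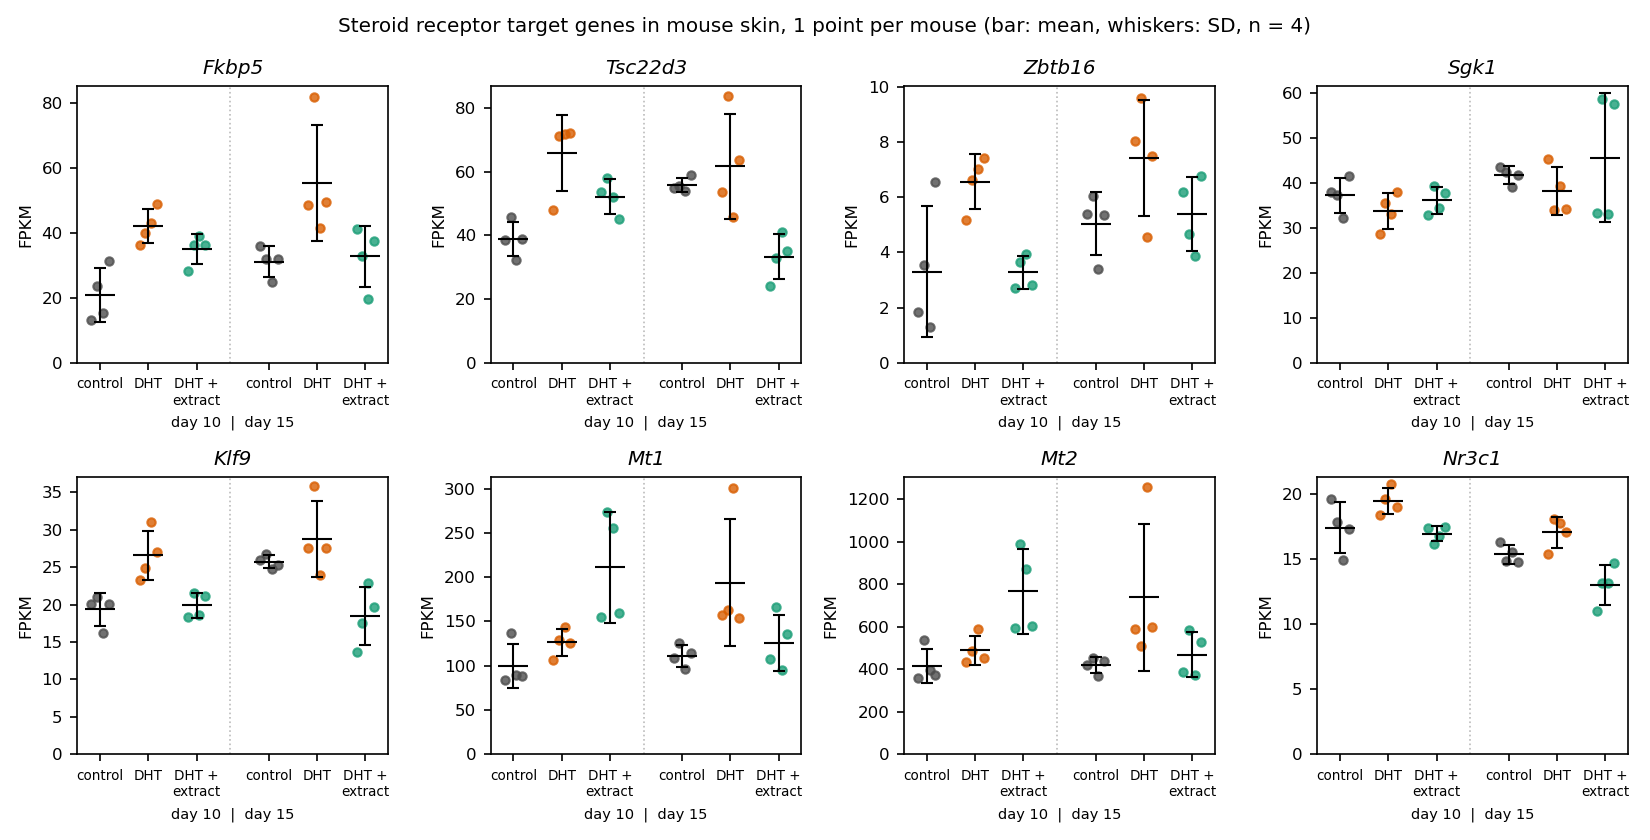
FPKM of the 8 genes (y axis, each panel with its own scale from 0) in control, model (DHT) and treatment (DHT + extract) mice at day 10 and day 15 (x axis). Points are mice, horizontal bars group means and whiskers SD (n = 4). Fkbp5 averaged 20.9 FPKM in control and 42.0 in model skin at day 10, and the group means of Sgk1 lay between 33.8 and 45.6.

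Model against control asks what DHT injection changed. At day 10, 4 of the 8 genes rose in limma's test (Fkbp5, Tsc22d3, Zbtb16 and Klf9) and none fell, where 13.8% of 13039 tested genes were called in either direction and 6.79% rose. A call is a Benjamini-Hochberg adjusted p under 0.05 over all tested genes, and differences are in log2(FPKM + 1). At day 15, Fkbp5 and Mt1 rose and none fell, against 10.8% of tested genes called and 4.23% risen. The median difference of the 8 genes was 0.40 at day 10 and 0.30 at day 15, against -0.02 and -0.03 over all tested genes. In 3 genes at day 10 (Fkbp5, Tsc22d3, Klf9) and 3 at day 15 (Fkbp5, Mt1, Mt2) every model mouse lay above every control mouse, which held for 12.5% and 7.89% of tested genes. Macrophage markers moved with the rise: 7 of 7 rose at day 10, from sums of 258 to 339 FPKM in control to 600 to 872 in model mice, and 2 of 7 at day 15. Hair shaft keratins fell, 7 of 8 at day 10, from sums of 3746 to 6598 FPKM to 1611 to 4083, and 2 of 8 at day 15. Of 6 fibroblast genes, Col3a1 and Dcn rose at both days, and the fibroblast sums of day 10 were 4071 to 6232 FPKM in control and 7070 to 10812 in model mice. Neutrophil genes rose too, 3 of 6 at day 10 (S100a9, Csf3r and Il1r2), from sums of 41.8 to 52.2 FPKM to 111 to 302, and Il1r2 alone at day 15. Of 5 endothelial genes 2 rose at day 10 and 1 at day 15, and 3 of 3 tested kidney genes were lower in model mice of day 10. Basal keratinocyte sums of day 15 were 636 to 1104 FPKM in model and 1305 to 1460 in control mice, without overlap. Those of day 10 overlapped. Of 5 differentiated keratinocyte genes Ivl alone fell at day 15 (-0.76, adjusted p = 0.0333). The part of these cell types in the result was not tested. Both day 15 calls were lost with no filter on low values (adjusted p = 0.0661 for Fkbp5 and 0.0613 for Mt1) and with only the libraries compared (adjusted p = 0.0617 and 0.0744).

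Treatment against model asks what the extract changed under DHT. At day 10, none of the 8 genes was called by limma or by limma-voom on recovered reads. At an unadjusted p under 0.05, 5 of the 8 passed (Zbtb16, Klf9 and Nr3c1 lower, Mt1 and Mt2 higher), beside 1360 of 13039 tested genes. With array weights, which let noisier libraries count less, limma called 6 of the 8, all but Fkbp5 and Sgk1. Without such weights 0.192% of tested genes were called, a share that does not apply to the weighted count of 6. The share of tested genes called with the weights is not given here. In those same 5 genes the groups did not overlap, which held for 6.24% of tested genes in the lower and 2.75% in the higher direction. Kidney genes were present in the model mice and not in the treatment mice of that day, and their part was not tested. At day 15, Fkbp5, Tsc22d3, Klf9 and Nr3c1 fell and none rose, against 19.7% of tested genes called and 9.32% fallen. These 4 genes did not overlap between the groups, as was so in this direction for 4.79% of tested genes. The median of the 8 genes was -0.58 against -0.02 over all tested genes. In the same comparison 8 of 8 hair shaft keratins rose, from sums of 2519 to 4204 FPKM to 5060 to 6945, and 2 of 6 fibroblast genes (Dcn and Lum), 2 of 7 macrophage genes (Mrc1 and Cd163) and 2 of 4 Y-linked genes fell. Fibroblast sums were 7358 to 13970 FPKM in model and 2742 to 9224 in treatment mice, and macrophage sums 735 to 1184 and 282 to 1170. Of the neutrophil genes, Il1r2 alone fell (-0.86, adjusted p = 0.0158). The part of these cell types and of the Y-linked genes was not tested. The day 15 calls draw on the spread of all 24 libraries: with the 8 libraries of this comparison alone no gene of the table was called, and the 4 genes had adjusted p-values of 0.136 to 0.201.

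Treatment against control compares mice given DHT and the extract with mice given neither. At day 10, Mt1 and Mt2 rose and none of the other 6 was called, against 3.24% of tested genes called and 2.2% risen. Both genes lay wholly above the control mice, as did 11.4% of tested genes. At day 15 none of the 8 was called by limma or by limma-voom, and 0.314% of tested genes were called. At an unadjusted p under 0.05, 2572 of 13039 tested genes passed, and 3 of the 8 did (Tsc22d3, Klf9 and Nr3c1, all lower). Those 3 genes lay wholly below the control mice, as did 4% of tested genes. These numbers turned on 1 library, treatment replicate 3. It had the lowest fibroblast sum and was the only one of its group without a low Y-linked level (48.2 FPKM). Without it 2665 genes of the table were called in place of 41, among them Tsc22d3 (-0.86, adjusted p = 0.00242) and Klf9 (-0.58, adjusted p = 0.00337). The treatment libraries left were then all of low Y-linked level, and the part of either trait was not tested. Without control replicate 4 of day 10, Fkbp5 was called in treatment against control at day 10 (0.99, adjusted p = 0.0472). Kidney genes were present in control mice of day 10 and not in treatment mice, and their part in the day 10 calls was not tested. Of 7 macrophage markers 4 also rose in that comparison, with sums of 532 to 764 FPKM in treatment mice. Of 6 tested neutrophil genes S100a9 rose (3.45, adjusted p = 0.0492), and the neutrophil sums were 157 to 239 FPKM in treatment and 41.8 to 52.2 in control mice without overlap. Hair shaft sums of day 10 were 2977 to 3709 FPKM in treatment and 3746 to 6598 in control mice, without overlap. Fibroblast sums of that day were 7899 to 9419 FPKM in treatment and 4071 to 6232 in control mice, though no fibroblast gene was called. At day 15, basal keratinocyte sums were 850 to 1141 FPKM in treatment and 1305 to 1460 in control mice, without overlap. The part of these cell types was not tested either. With array weights, Fkbp5 and Tsc22d3 were called as well at day 10, and Tsc22d3 and Klf9 at day 15. The shares of tested genes called with the weights are not given here.

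**Figure D2:**
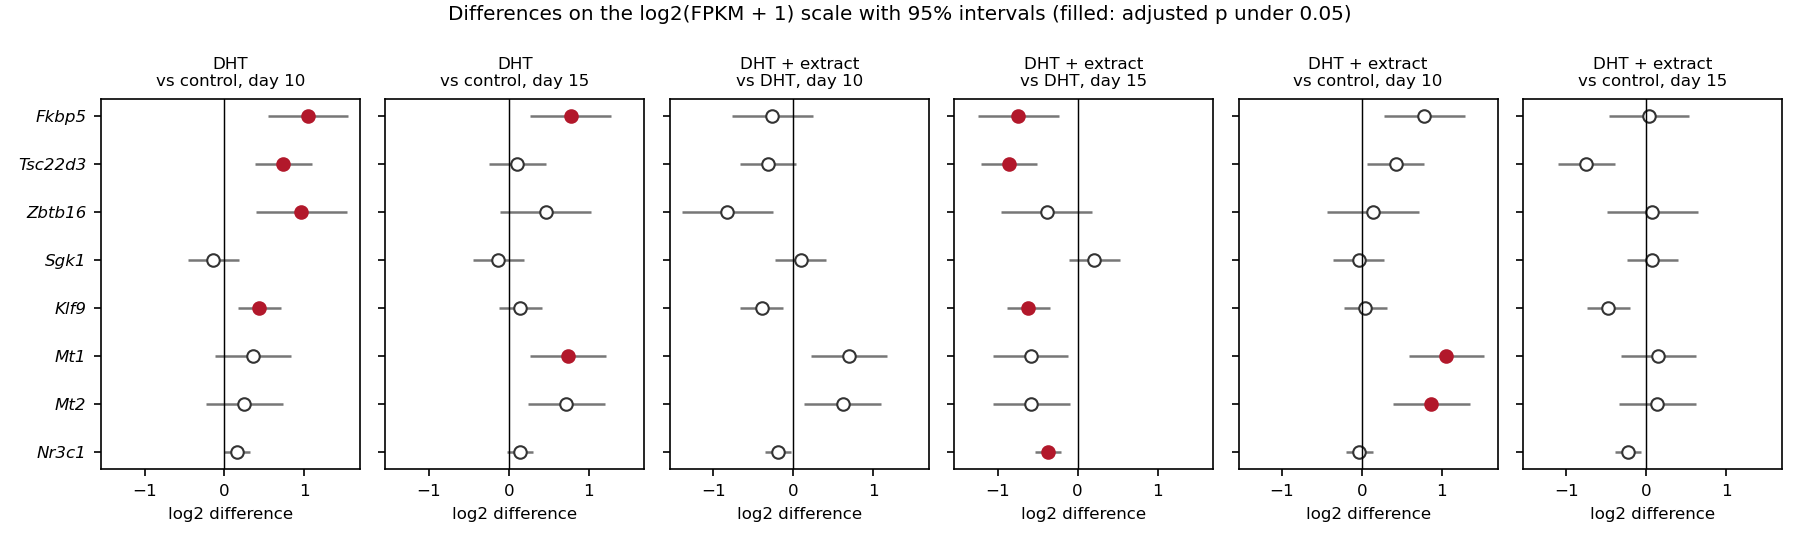
Log2 difference between groups (x axis, log2 of FPKM + 1) for the 8 genes (y axis) in 6 comparisons of model (DHT), treatment (DHT + extract) and control mice, with 95% intervals from limma. Filled points have an adjusted p under 0.05. The filled points lie to the right in model against control and treatment against control, and to the left in treatment against model at day 15.

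Fkbp5 encodes the co-chaperone that tempers the glucocorticoid receptor. At day 10 it measured 13.2, 23.6, 15.4 and 31.4 FPKM in control mice, 36.4, 40.0, 42.9 and 48.8 in model mice and 28.3, 36.1, 39.0 and 36.2 in treatment mice. At day 15 it measured 36.0, 31.9, 24.7 and 32.1 FPKM in control, 48.5, 81.8, 41.6 and 49.6 in model and 41.0, 33.0, 19.6 and 37.5 in treatment mice. All 8 model mice lay above all control mice of their day, and day 15 treatment mice overlapped the controls. Fkbp5 rose in model against control by 1.04 at day 10 (SE 0.24, adjusted p = 0.0109) and by 0.77 at day 15 (SE 0.24, adjusted p = 0.0466). In treatment against model the difference was -0.26 at day 10 (95% interval -0.77 to 0.24, adjusted p = 0.749), and at day 15 Fkbp5 fell by 0.74 (SE 0.24, adjusted p = 0.0379). By group mean the order was control day 10 (20.9 ± 8.29 FPKM, SD, n = 4), control day 15 (31.2 ± 4.69), treatment day 15 (32.8 ± 9.38), treatment day 10 (34.9 ± 4.61), model day 10 (42.0 ± 5.24) and model day 15 (55.4 ± 17.9). Neighbours in this order differed by less than the larger of their SDs, apart from control day 10 and control day 15, which differed by 0.62 (adjusted p = 0.126), and treatment and model of day 10. The day 10 rise kept its call without any 1 of the 8 libraries, with adjusted p up to 0.0451. The day 15 rise lost it without control replicates 2, 3 or 4 or model replicates 2, 3 or 4 (adjusted p 0.0559 to 0.147), and the day 15 fall without model replicates 2 or 4 or treatment replicate 3 (adjusted p 0.0537 to 0.134). Without the 4 libraries of low Y-linked level the fall was 1.40 (adjusted p = 0.0133), but treatment replicate 3 was then the only one of its group left at day 15. It has the lowest fibroblast sum of all libraries and the lowest Fkbp5 of its group, and a lone library is assumed in such a fit to vary like the other groups.

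Zbtb16 encodes PLZF, a zinc finger transcription factor induced by glucocorticoids and androgens in many cells. It was the least abundant of the 8, at 1.82, 3.54, 1.28 and 6.56 FPKM in control, 5.16, 6.63, 7.03 and 7.43 in model and 2.72, 3.64, 3.94 and 2.80 in treatment mice at day 10. The day 15 values were 5.39, 6.04, 3.39 and 5.35 FPKM in control, 8.03, 9.59, 4.55 and 7.50 in model and 6.2, 4.68, 3.86 and 6.77 in treatment mice. Control replicate 4 reached the model range at day 10, and every treatment mouse of that day lay below every model mouse. Zbtb16 rose in model against control at day 10 by 0.96 (SE 0.27, adjusted p = 0.027). Its difference was 0.46 at day 15 (adjusted p = 0.262), and in treatment against model -0.82 at day 10 (SE 0.27, adjusted p = 0.265) and -0.39 at day 15 (adjusted p = 0.326). The day 10 rise lost its call without control replicates 1 or 3 or model replicates 2, 3 or 4 (adjusted p 0.0681 to 0.114), and with only the libraries compared (adjusted p = 0.0756). Without control replicate 4 it was 1.29, the highest value of any single omission.

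Tsc22d3 encodes GILZ, a leucine zipper protein through which glucocorticoids restrain inflammatory signalling. At day 10 it measured 38.6, 45.7, 32.3 and 39.0 FPKM in control, 47.9, 71.4, 71.9 and 72.3 in model and 53.7, 58.0, 52.2 and 45.0 in treatment mice. At day 15 the values were 55.0, 55.5, 53.9 and 58.9 FPKM in control, 53.5, 84.0, 45.7 and 63.6 in model and 24.1, 33.0, 41.1 and 35.2 in treatment mice. All model mice were above control at day 10, the model mice of day 15 scattered on both sides of a tight control group, and the treatment mice of day 15 were below every other mouse of that day. Tsc22d3 rose in model against control at day 10 by 0.74 (SE 0.17, adjusted p = 0.0104), with adjusted p up to 0.0443 without any 1 library, and the day 15 difference was 0.11 (95% interval -0.25 to 0.46, adjusted p = 0.71). In treatment against model it was -0.31 at day 10 (adjusted p = 0.535) and fell by 0.86 at day 15 (SE 0.17, adjusted p = 0.00288). Against control, treatment gave 0.42 at day 10 (adjusted p = 0.136) and -0.75 at day 15 (SE 0.17, adjusted p = 0.065). The change of the treatment-control difference between the days, a test added after the values were seen, was -1.17 (SE 0.24, adjusted p = 0.0487), with 0.33% of tested genes called and 0.245% in this direction. That call was lost without control replicates 1, 3 or 4 or treatment replicates 2, 3 or 4 of day 10, without any of the 4 control mice of day 15, and without treatment replicates 1 or 2 of day 15 (adjusted p 0.0501 to 0.125). It was also lost without the 4 libraries of low Y-linked level (adjusted p = 0.0935), as was the day 15 fall against model (-0.54, adjusted p = 0.121), both with treatment replicate 3 alone at day 15.

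Klf9 encodes a Kruppel-like transcription factor that glucocorticoids, thyroid hormone and the circadian clock induce in keratinocytes. At day 10 it measured 20.1, 21.1, 16.1 and 20.1 FPKM in control, 23.3, 24.9, 31.0 and 27.1 in model and 18.3, 21.5, 18.6 and 21.2 in treatment mice. Day 15 gave 25.9, 26.8, 24.8 and 25.3 FPKM in control, 27.6, 35.9, 23.9 and 27.6 in model and 13.7, 17.6, 22.9 and 19.7 in treatment mice. Model mice were highest at day 10 with no overlap, and treatment mice lowest at day 15 with no overlap. Klf9 rose in model against control by 0.44 at day 10 (SE 0.13, adjusted p = 0.0302), and the day 15 difference was 0.14 (adjusted p = 0.482). In treatment against model it was -0.40 at day 10 (SE 0.13, adjusted p = 0.261), and it fell by 0.62 at day 15 (SE 0.13, adjusted p = 0.0038). The day 10 rise lost its call without control replicates 1, 3 or 4 or model replicates 2, 3 or 4 (adjusted p 0.0522 to 0.116). The day 15 difference was -0.30 without the 4 libraries of low Y-linked level (adjusted p = 0.196), with treatment replicate 3 alone at day 15.

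Mt1 and Mt2 encode metallothioneins, small cysteine-rich proteins that bind zinc and copper and are induced by metals, oxidative stress and glucocorticoids. Mt2 was the most abundant of the 8 genes, and the 2 paralogues are similar in sequence. How reads matching both were handled is not given in the sources used here. At day 10 Mt1 measured 84.4, 137, 89.0 and 88.2 FPKM in control, 107, 129, 144 and 126 in model and 155, 274, 255 and 160 in treatment mice. Mt1 at day 15 measured 109, 126, 96.0 and 115 FPKM in control, 157, 163, 301 and 154 in model and 107, 166, 95.1 and 136 in treatment mice. Mt1 was thus highest in treatment mice at day 10 and in model mice at day 15. Mt2 followed at 357, 535, 394 and 373 FPKM in control, 433, 484, 588 and 452 in model and 592, 992, 874 and 606 in treatment mice at day 10. At day 15 Mt2 measured 418, 454, 367 and 440 FPKM in control, 587, 507, 1256 and 600 in model and 388, 585, 372 and 530 in treatment mice. The group means of the Mt2 to Mt1 ratio lay between 3.66 and 4.20.

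Against control, treatment mice of day 10 had higher Mt1 by 1.06 (SE 0.23, adjusted p = 0.016) and higher Mt2 by 0.87 (SE 0.23, adjusted p = 0.0446). In model mice the difference from control at day 10 was 0.36 for Mt1 (adjusted p = 0.297) and 0.25 for Mt2 (adjusted p = 0.499). At day 15 Mt1 rose in model mice by 0.74 (SE 0.23, adjusted p = 0.0432), and Mt2 stood just outside the threshold at 0.72 (SE 0.23, adjusted p = 0.0505). Treatment against model was 0.70 for Mt1 at day 10 (adjusted p = 0.261) and -0.59 at day 15 (adjusted p = 0.0722). The change of that difference between the days was -1.28 for Mt1 (SE 0.32, adjusted p = 0.118). For Mt2 the change was -1.20 (SE 0.33, adjusted p = 0.138). In this test none of the 8 genes was called by limma or limma-voom, where 0.0997% of tested genes were called. An unadjusted p under 0.05 was reached by 3 of the 8 and by 1884 of 13039 tested genes. Model replicate 3 of day 15 held the highest level of both genes and also the high neutrophil sum, whose part was not tested. Without it the Mt1 difference between model and control at day 15 was 0.51 (adjusted p = 0.154). That Mt1 call was also lost without any of the 4 control mice of day 15 or without model replicate 2 (adjusted p 0.0638 to 0.124). Mt2 was called in model against control at day 15 without model replicate 1 or 2 (adjusted p = 0.0369 and 0.0487). Without treatment replicate 2 of day 15, both genes were called lower in treatment against model (Mt1 -0.73, adjusted p = 0.0338, and Mt2 -0.70, adjusted p = 0.048). Without treatment replicates 2 or 3 or control replicates 1, 3 or 4, the day 10 calls against control were lost for Mt1 (adjusted p 0.0533 to 0.0771) and for Mt2 (adjusted p 0.108 to 0.15).

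Sgk1 encodes a kinase that glucocorticoids and mineralocorticoids induce and that keeps epithelial sodium channels at the cell surface. Its window 5 holds the full inverted repeat shown above, and it was called in none of the 12 comparisons. At day 10 Sgk1 measured 38.1, 37.3, 32.2 and 41.5 FPKM in control, 28.6, 35.6, 33.1 and 38.0 in model and 32.9, 39.2, 34.5 and 37.8 in treatment mice. Its day 15 values were 43.6, 42.5, 39.0 and 41.8 FPKM in control, 45.4, 34.0, 39.3 and 34.2 in model and 33.4, 58.6, 33.0 and 57.5 in treatment mice. The treatment mice of day 15 divided, with replicates 2 and 4 above and replicates 1 and 3 below every control mouse of that day. Model against control gave -0.14 at day 10 (95% interval -0.46 to 0.18) and -0.13 at day 15 (95% interval -0.45 to 0.19). A rise of the size seen for Fkbp5 at day 10 lies outside both intervals.

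Nr3c1 encodes the glucocorticoid receptor, and its level ranged from 11 to 20.8 FPKM over the 24 mice. At day 10 it measured 19.6, 17.8, 14.9 and 17.3 FPKM in control, 18.4, 19.6, 20.8 and 19.0 in model and 17.4, 16.2, 16.8 and 17.5 in treatment mice. Nr3c1 at day 15 measured 16.3, 14.9, 15.5 and 14.8 FPKM in control, 15.4, 18.1, 17.7 and 17.1 in model and 11, 13.2, 13.2 and 14.7 in treatment mice. The 4 treatment mice of day 15 held the lowest values of all 24 mice. Nr3c1 fell in treatment against model at day 15 by 0.37 (SE 0.08, adjusted p = 0.00418), and was called in neither model-control comparison (0.16 at day 10, adjusted p = 0.187, and 0.14 at day 15, adjusted p = 0.234). Without the 4 libraries of low Y-linked level the fall was 0.35 (adjusted p = 0.0303), again with treatment replicate 3 as the lone library of its group, assumed to vary like the others. The estrogen receptor gene Esr1 averaged 1.88 ± 0.45 FPKM (SD, n = 24) and was called in none of the 12 comparisons. The mineralocorticoid receptor gene Nr3c2 averaged 0.41 FPKM, and Pgr and Esr2 were under 0.1, all 3 below the filter.

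Between the days, none of the 8 genes was called in control mice (4.81% of tested genes called) or in model mice (8.47% called). An unadjusted p under 0.05 was found for 5 of the 8 in control mice, beside 3116 of 13039 tested genes. For model mice these counts were 3 of the 8 and 3537 of 13039. Limma-voom called none of the 8 in either. In control mice, Tsc22d3 and Klf9 nevertheless lay wholly higher at day 15 (0.52, adjusted p = 0.0721, and 0.40, adjusted p = 0.0699), as did 7.01% of tested genes. Both were called with only the libraries compared (adjusted p = 0.0151 and 0.0177) and with median-of-ratios scaling (adjusted p = 0.048 and 0.034). With array weights 4 genes were called in control mice (Fkbp5, Tsc22d3 and Klf9 higher, Nr3c1 lower) and Nr3c1, lower, in model mice. The shares of tested genes called with the weights are not given here. In model mice Mt1 lay wholly higher (2.65% of tested genes) and Nr3c1 wholly lower (12.8%). In treatment mice, Tsc22d3 (-0.65, adjusted p = 0.0213), Mt1 (-0.72, adjusted p = 0.0476) and Nr3c1 (-0.36, adjusted p = 0.00843) fell, against 9.64% of tested genes called and 7.53% fallen. None of these 3 falls kept its call without the 4 libraries of low Y-linked level, which left treatment replicate 3 alone at day 15 (Tsc22d3 -0.33, adjusted p = 0.44, Mt1 -0.99, adjusted p = 0.0958, and Nr3c1 -0.35, adjusted p = 0.0747). With only the libraries compared none was called either. Tsc22d3, Mt2 and Nr3c1 lay wholly lower at day 15 in treatment mice, as did 9.57% of tested genes. Tsc22d3 also lost its call without treatment replicates 1 or 2 of day 10 or replicate 1 of day 15 (adjusted p 0.0517 to 0.0908), and Mt1 without replicates 2, 3 or 4 of day 10 or 1, 3 or 4 of day 15 (adjusted p 0.0504 to 0.163). Markers moved between the days as well. In treatment mice 5 of 6 sebaceous gland genes fell, from sums of 448 to 487 FPKM to 311 to 377, as did 4 of 5 basal keratinocyte genes, Dcn and Lum of the fibroblast genes and Flg of the differentiated keratinocyte genes, while 5 of 8 hair shaft keratins rose. In model mice 4 of 5 differentiated keratinocyte and 3 of 6 sebaceous gland genes fell and 3 of 8 hair shaft keratins rose, and in control mice 2 sebaceous gland genes and Flg fell. The kidney genes of day 10 were gone at day 15 in both (Kap -4.50 in control and -4.11 in model mice). Of 7 macrophage genes Adgre1 alone rose in control mice (1.30, adjusted p = 0.0362). Macrophage sums of control mice were 258 to 339 FPKM at day 10 and 382 to 645 at day 15, without overlap. The part of these cell types was not tested. Calls were gained for Mt2 in treatment mice without replicate 2 of day 15 (-0.81, adjusted p = 0.0487) and for Zbtb16 in control mice without replicate 4 of day 10 (0.95, adjusted p = 0.0474). The difference between model and control did not pass the test of a change between days for any gene of the table by limma (0% called), with 352 genes at an unadjusted p under 0.05. Among the 8 genes that test had 1 unadjusted p under 0.05, for Tsc22d3 (-0.63, adjusted p = 1), and limma-voom called none of them.

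**Figure D3:**
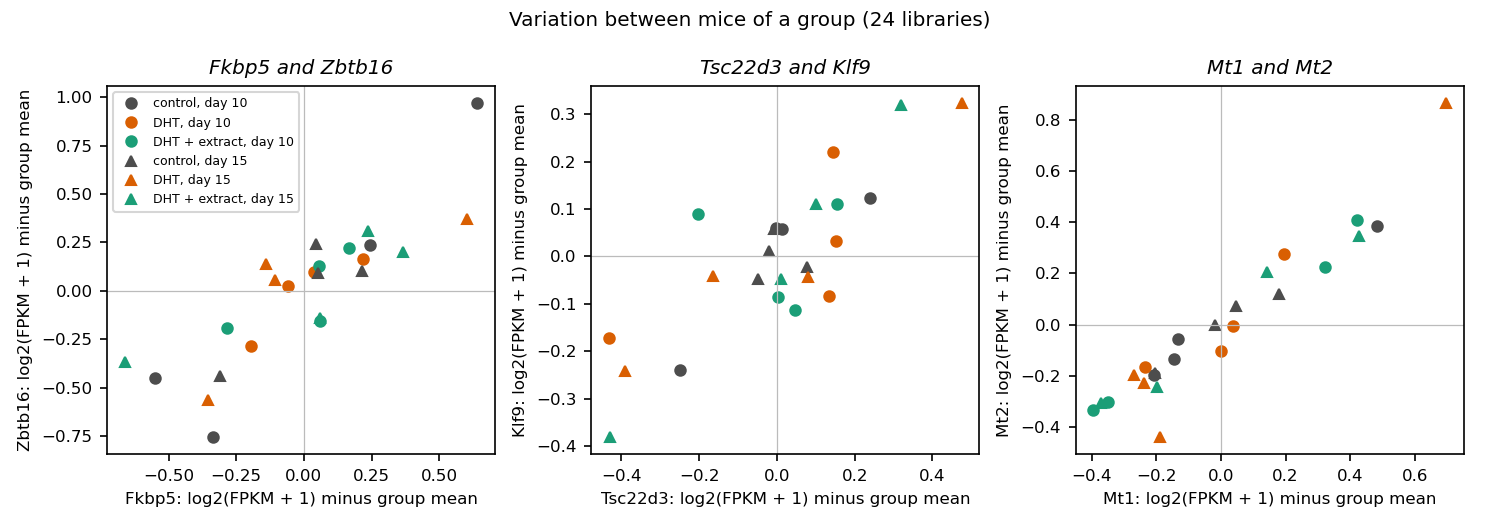
Variation between mice of the same group for 3 pairs of genes: each point is 1 of 24 libraries, and the axes show log2(FPKM + 1) minus the mean of the library's group. Circles are day 10 and triangles day 15. The points follow a rising line in each panel, with r of 0.86, 0.83 and 0.96.

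Mice of the same group also differed together in some of these genes. After the group means were removed, 3 of 28 pairs had a Benjamini-Hochberg adjusted permutation p under 0.05 (100000 permutations within groups, two-sided). Fkbp5 and Zbtb16 had r = 0.86 and Spearman's rho = 0.86 (p = 4e-05 and 5e-05, adjusted p = 0.00056 and 0.0007), and r was 0.82 without the 2 libraries farthest from the median of Fkbp5. Mt1 and Mt2 had r = 0.96 and rho = 0.94 (p = 1e-05 for both, the smallest value these permutations can give, adjusted p = 0.00028), and r was 0.94 without the 2 farthest libraries. Tsc22d3 and Klf9 had r = 0.83 and rho = 0.71 (p = 0.00044 and 0.00154, adjusted p = 0.00411 and 0.0144), and r was 0.75 without the 2 farthest. Fkbp5 did not pass this test with Tsc22d3 (r = 0.22, rho = 0.26, adjusted permutation p = 0.89 and 0.525) or with Klf9 (r = 0.15, rho = 0.28, adjusted permutation p = 0.941 and 0.525). Summed markers of cell types also varied with the genes within groups, described here over the same 24 libraries. Fkbp5 had r = 0.75 with the fibroblast sum, 0.62 with the sebaceous gland sum and 0.58 with the differentiated keratinocyte sum. It had -0.50 with the hair shaft sum and 0.41 with the macrophage sum. Mt2 had 0.78 with the neutrophil sum, and Tsc22d3 had -0.64 with the hair shaft sum. Sgk1 had 0.73 with the sum of T cell markers and -0.63 with that of skeletal muscle markers. With the Y-linked sum, r was 0.55 for Klf9, 0.42 for Nr3c1, 0.30 for Tsc22d3 and -0.12 for Zbtb16. It was -0.15 for Mt2, -0.18 for Sgk1, -0.29 for Mt1 and -0.37 for Fkbp5. Further values are not listed here.

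Among 12719 named genes, those with the pattern most like Fkbp5 over the 24 libraries, which share depth and group, were Tacr1, the receptor of substance P (r = 0.89), Gdap2 (0.89), the macrophage scavenger receptor gene Cd163 (0.88), Carhsp1 (0.87) and Stard8 (0.86). Zbtb16 was nearest to Fkbp5 (0.84), then Fam107a (0.76) and the phagocytic receptor gene Mertk (0.74). Tsc22d3 was nearest to Pon3 (0.87), Txnip (0.86), which encodes a thioredoxin inhibitor, and Klf9 (0.86). Klf9 was nearest to Tcim (0.87), Tsc22d3 and Eif4e3 (0.86). Mt1 and Mt2 were nearest to each other (0.98) and then to Pdpn (0.93), which encodes podoplanin. Anxa7 (0.89) came next for Mt1 and Il13ra1 (0.89) for Mt2. Sgk1 was nearest to Ccn1 (0.84), Sik1 (0.78) and Btg2 (0.78), and Nr3c1 to Tnrc6a (0.92), Sfmbt1 (0.91) and Ddhd2 (0.91).

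A wider list of genes that glucocorticoids are known to induce moved in both directions. Leaving out the members, 27 of its genes were tested. At day 10, 4 rose in model against control. These were Mertk (0.50, adjusted p = 0.0081), Cebpd (0.98, adjusted p = 0.0147), which encodes an inflammation-linked transcription factor, Fam107a (0.77, adjusted p = 0.0235) and Bcl6 (0.33, adjusted p = 0.0413). In the same comparison 3 fell, Map3k6 (-0.48, adjusted p = 0.0194), Foxo3 (-0.42, adjusted p = 0.0372) and Cdkn1a (-0.36, adjusted p = 0.0377), a cell cycle inhibitor gene. Of the 27, 20 did not pass, among them the standard responders Per1 (0.15, adjusted p = 0.474), a clock gene, and Dusp1 (0.12, adjusted p = 0.881), a phosphatase gene. At day 15, Mertk (0.46, adjusted p = 0.0165) and Cebpd (0.79, adjusted p = 0.0443) rose and Cdkn1a fell (-0.36, adjusted p = 0.047). Called in either direction were thus 7 of the 27 at day 10 and 3 at day 15, where 13.8% and 10.8% of all tested genes were called. The list's median was 0.13 at day 10 and 0.10 at day 15.

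In treatment against model at day 15, 5 of the 27 fell and 1 rose, where 19.7% of all tested genes were called and 9.32% fell. The list's median was -0.29 against -0.02 over all tested genes. The 5 were Txnip (-0.64, adjusted p = 0.00373), Ddit4 (-0.57, adjusted p = 0.00585), an inhibitor of growth signalling, Mertk (-0.45, adjusted p = 0.00959), Pik3r1 (-0.57, adjusted p = 0.0189) and Bcl6 (-0.36, adjusted p = 0.0209), and Cdkn1a rose (0.44, adjusted p = 0.0119). None of the 27 was called in treatment against model at day 10 by limma or limma-voom, and 8 had an unadjusted p under 0.05. The day 10 count of 4 risen genes was 2 without control replicate 3 or model replicate 4 and 1 without model replicate 3. The count of 3 fallen genes was 0 without control replicate 3 or model replicates 2, 3 or 4 and 1 without control replicates 1 or 4. The counts of day 15 in model against control reached 0 when control replicates 3 or 4 were left out. In treatment against model the 5 fallen genes became 8 without model replicate 3, and the count was 0 with only the libraries compared.

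**Figure D4:**
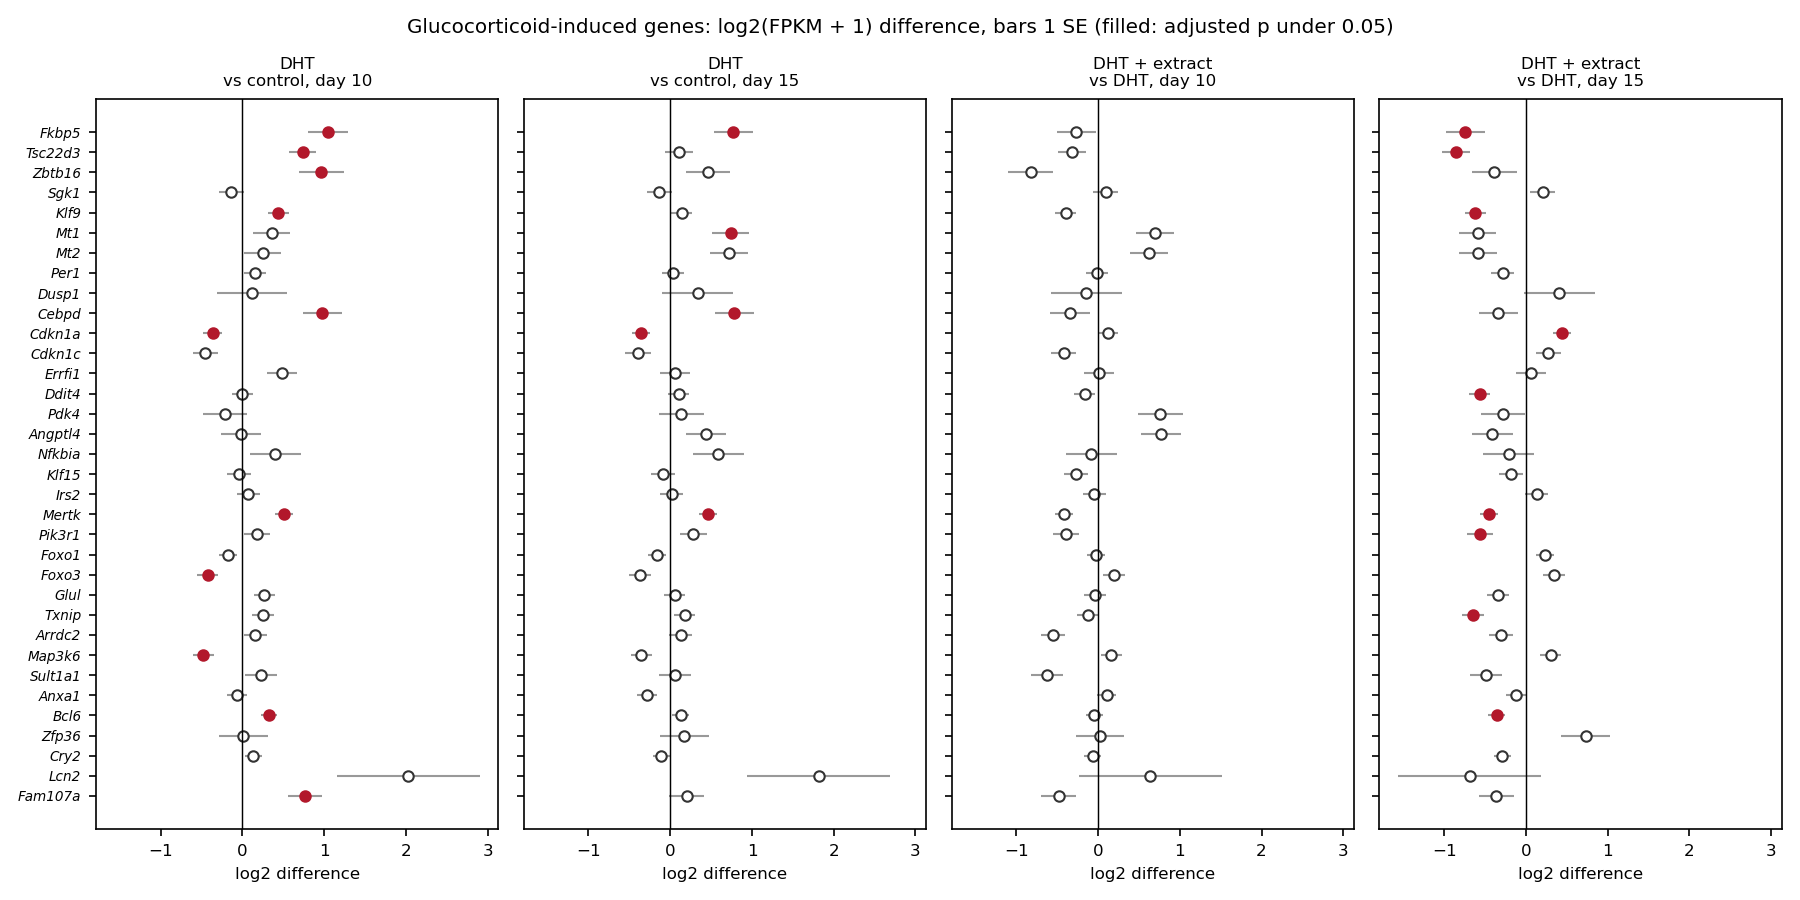
Log2 difference (x axis, log2 of FPKM + 1) with bars of 1 SE for the tested genes of the glucocorticoid-induced list (y axis, the 7 members of it at the top) in model (DHT) against control and treatment (DHT + extract) against model. Filled points have an adjusted p under 0.05. Filled points lie on both sides of 0 in the model-control panels, there are none in treatment against model at day 10, and at day 15 those of treatment against model lie to the left apart from Cdkn1a.

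Androgen-induced genes known from prostate and other tissues did not share 1 direction either. Of 12 tested besides the members, Camkk2 rose in model against control at day 10 (0.34, adjusted p = 0.0415) while Slc45a3 (-0.66, adjusted p = 0.0084) and Tmprss2 (-0.89, adjusted p = 0.00935), the prostate protease gene, fell. At day 15, Steap4 (0.90, adjusted p = 0.0211), Abcc4 (0.51, adjusted p = 0.0442) and Camkk2 (0.35, adjusted p = 0.0453) rose, and Pmepa1 (-0.36, adjusted p = 0.0298) and Slc45a3 (-0.46, adjusted p = 0.0488) fell. Camkk2 (-0.56, adjusted p = 0.00243) and Abcc4 (-0.56, adjusted p = 0.0186) fell in treatment against model at day 15. The 12 thus had 3 calls at day 10 and 5 at day 15 in model against control and 2 in treatment against model at day 15, beside 13.8%, 10.8% and 19.7% of all tested genes. The single rise of day 10 was lost without control replicates 1, 3 or 4 or model replicates 2, 3 or 4, and the 3 rises of day 15 became 0 without control replicates 2, 3 or 4 or model replicate 3. Without model replicate 2 or those same libraries, the 2 falls of day 15 became 0. The list's median was -0.11 in model against control at both days and 0.07 in treatment against model at day 15.

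Of 17 chaperones and co-chaperones of the receptors tested besides Fkbp5, none was called in model against control at day 10 by limma or limma-voom. Of all tested genes, 13.8% were called. An unadjusted p under 0.05 was reached by 3 of the 17 and by 3927 of all 13039 tested genes. At day 15, Dnajb1 (-0.24, adjusted p = 0.0139) and Hspa1b (-0.47, adjusted p = 0.0334), both heat shock genes, fell, beside 10.8% of all tested genes called. In treatment against model at day 15, the kinase chaperone gene Cdc37 (0.35, adjusted p = 0.00199), Dnajb1 (0.27, adjusted p = 0.00373) and Fkbp4 (0.31, adjusted p = 0.0388) rose, and St13 fell (-0.21, adjusted p = 0.0355), 4 of 17 called beside 19.7% of all tested genes. Fkbp4 encodes the co-chaperone that competes with Fkbp5 protein and favours hormone binding, so the pair moved in opposite directions there. Of 12 other FK506-binding protein genes, Fkbp14 (0.48, adjusted p = 0.0399) and Fkbp7 (0.65, adjusted p = 0.0434), which encode prolyl isomerases of the endoplasmic reticulum, rose with Fkbp5 in model against control at day 10. Fkbp7 (-0.92, adjusted p = 0.00656) and Fkbp14 (-0.44, adjusted p = 0.0444) fell with it in treatment against model at day 15, while Fkbp8 (0.34, adjusted p = 0.00153) and Fkbp4 rose. These were 2 of 12 called beside 13.8% of all tested genes, and 4 of 12 beside 19.7%. The 2 risen genes of day 10 became 0 without control replicates 1, 3 or 4 or model replicates 2, 3 or 4. St13 lost its call without model replicates 2 or 4 or treatment replicates 1, 2 or 4 of day 15.

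Of 3 other TSC22 genes, Tsc22d2 fell in model against control at day 15 (-0.41, adjusted p = 0.0474), beside 10.8% of all tested genes called. Of 11 other Kruppel-like factors, Klf10 (-0.74, adjusted p = 0.00171) and Klf7 (-0.44, adjusted p = 0.0191) fell with Klf9 in treatment against model at day 15, and Klf16 rose (0.40, adjusted p = 0.00576), 3 of 11 beside 19.7% of all tested genes. Of 10 sodium channel and Sgk1 pathway genes, the channel subunit gene Scnn1a fell in model against control at day 10 (-0.55, adjusted p = 0.0164), beside 13.8% of all tested genes called. Scnn1a rose in treatment against model at day 15 (0.53, adjusted p = 0.0137), beside 19.7%. Its fall was lost without control replicate 3 or model replicates 2 or 3, and its rise without model replicates 2 or 3 or treatment replicate 1.

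Of 12 other zinc and metal handling genes, 2 rose with Mt1 and Mt2 in treatment against control at day 10, beside 2.2% of all tested genes. They were Hmox1 (1.62, SE 0.35, adjusted p = 0.0161), which encodes the stress-induced heme oxygenase, at 231 ± 96.5 FPKM (SD, n = 4) against 68.7 ± 13.3, and Mt3 (0.69, adjusted p = 0.0398), at 1.48 ± 0.53 FPKM against 0.52 ± 0.20. The zinc sensor gene Mtf1 (0.09, adjusted p = 0.486) and the zinc exporter gene Slc30a1 (-0.47, adjusted p = 0.136) were not called there. Both were named after their values were seen, and a part of zinc in the rise of Mt1 and Mt2 was not tested. Mt4, a metallothionein of stratified epithelium, fell in model against control at day 10 (-0.55, adjusted p = 0.0477) and rose in treatment against model at day 15 (0.65, adjusted p = 0.0169). In model against control at day 10, Gclc (-0.49, adjusted p = 0.0251) and Gclm (-0.29, adjusted p = 0.0433), the glutathione synthesis genes, fell, beside 13.8% of all tested genes called. The 2 risen genes of day 10 became 1 without control replicates 1 or 4 and 0 without control replicate 3 or treatment replicates 2, 3 or 4. The 3 fallen metal genes of model against control at day 10 became 0 without control replicates 1 or 3 or model replicates 2, 3 or 4.

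**Figure D5:**
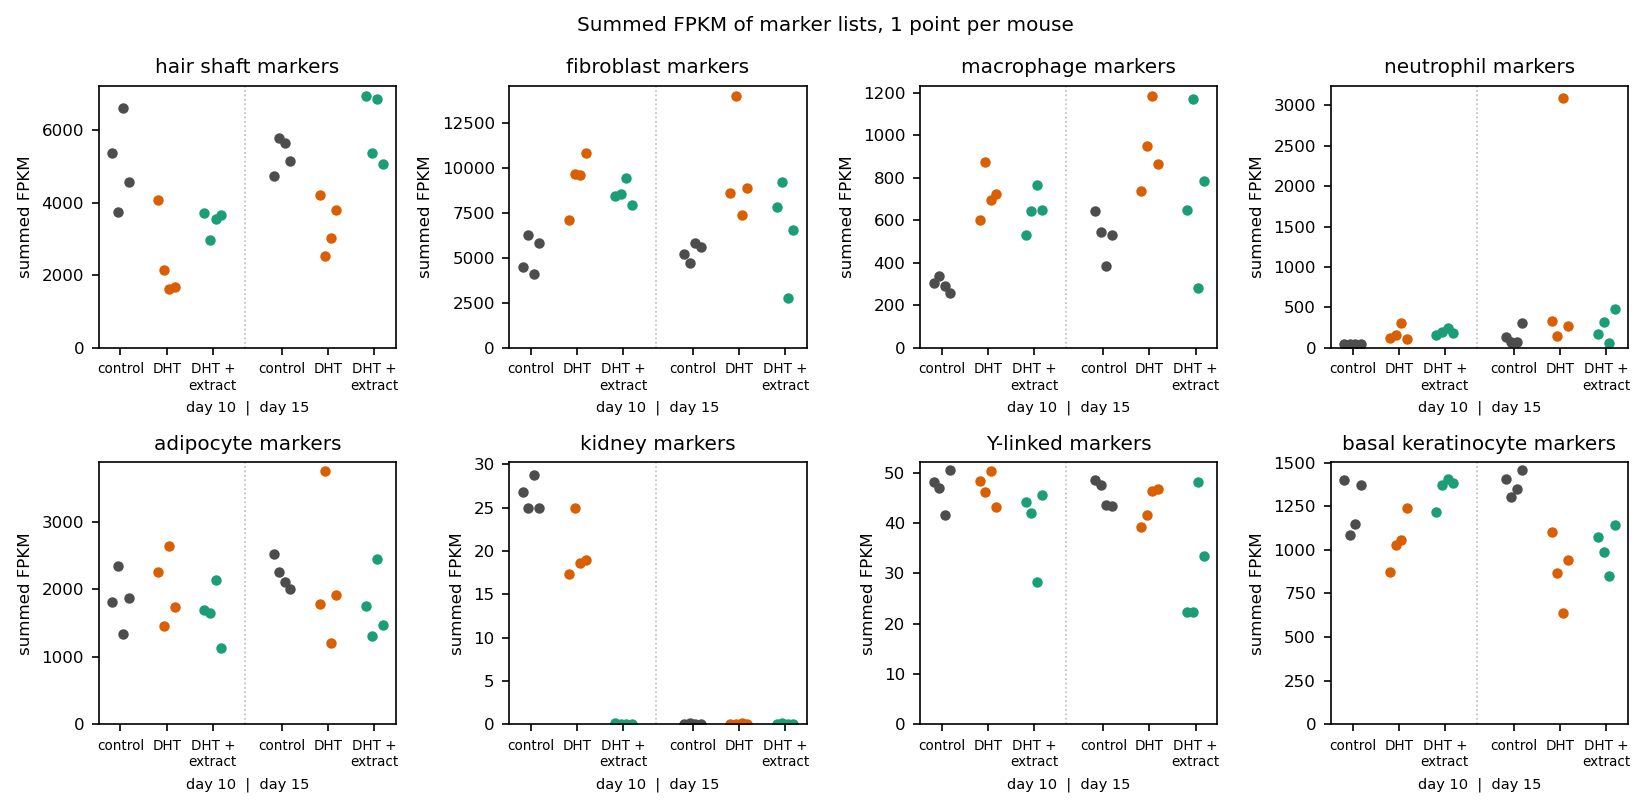
Summed FPKM (y axis, from 0) of 8 marker lists in each library by group and day (x axis), 1 point per mouse. Kidney genes appear in the control and model (DHT) mice of day 10, 1 model mouse of day 15 reaches a neutrophil sum of 3087, and 4 treatment (DHT + extract) libraries have Y-linked sums of 22.3 to 33.4.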

How the data were processed

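Poly(A) RNA of skin from 24 mice, 4 in each of 6 groups, was sequenced. FPKM values per gene were deposited by the authors. Per the labels' protocols, RNA was extracted with TRIzol and libraries were made with a VAHTS Universal V6 kit, and the submitters' processing notes name fastp, HISAT2, HTSeq and GRCm39, with no versions. Strand use and the handling of reads shared between similar genes are not given in the sources used here.

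Low FPKM values were whole multiples of 1 read within 0.01 to 0.05 read for 18715 of 18715 genes above 0 (100%), so reads were recovered, 37048896 to 41117262 per library. Genes with FPKM of 1 or more in at least 4 libraries were kept (13039 of 18892, 5853 removed). Log2(FPKM + 1) was fitted with limma 3.58.1 (R 4.3.3), with 1 mean per group over all 24 libraries, a moderated variance with trend and robust settings and 18 residual degrees of freedom. Every adjusted p of a difference between groups is limma's with Benjamini-Hochberg adjustment over all tested genes of that comparison, and a call is an adjusted p under 0.05. Of 12 comparisons, 11 were planned and 1, the change of treatment against control between days, was added after values were seen. The scale of log2(FPKM + 1) understates changes of low genes. Comparisons share groups, so their values are not independent.

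Correlations used values with group means removed and 100000 permutations within groups (Python 3.11.15, NumPy 2.4.6, SciPy 1.17.1). The fits were tested on simulated data. Alternatives were pseudocount, filter, scaling, array weights, the libraries fitted, a replicate block, limma-voom on recovered reads and leaving out libraries. The 8 members and the gene lists were chosen with earlier results of these data known. The 8 members were named throughout, with the 3 genes most like each (5 for Fkbp5) and up to 4 called genes of smallest p per list and comparison. Further called genes of a list, and Per1, Dusp1, Mtf1 and Slc30a1, were named after their values were seen.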

Additional observations from a re-analysis of the deposited data

Results flagged for a closer look

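Single mice stood apart from the other 3 of their group in 5 of 120 groups of values examined (4 of 48 for the 8 genes and 1 of 72 for marker sums). The gap to the nearest mouse exceeded 0.829 of the group's range in each, which chance alone passes in about 1 of 20 groups. Tsc22d3 measured 47.9 FPKM in model replicate 1 of day 10, below the 71.4 to 72.3 of the other mice. Mt1 measured 137 FPKM in control replicate 2 of day 10, above 84.4 to 89.0. Model replicate 3 of day 15 stood apart in 3 values: Mt1 at 301 FPKM (others 154 to 163), Mt2 at 1256 FPKM (others 507 to 600) and the neutrophil sum at 3087 FPKM (others 147 to 328).

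The difference of Tsc22d3 between treatment and control changed from day 10 to day 15 by -1.17 (limma adjusted p = 0.0487), in a test of the change itself that was chosen after the values were seen.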

How the results depend on the processing

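Of 1611 recomputed differences of the 8 genes, 1443 kept their direction and side of the threshold, 80 lost a call, 53 gained one and 35 turned direction, 0 of them while called. The cause of these changes was not tested. The count of called genes among the 8 in model against control at day 15 was 0 with no filter. With only the libraries compared it was 0 there, 1 in treatment against model at day 10, 0 at day 15, 2 between days in control and 0 between days in treatment mice. With array weights it was 6 in treatment against model at day 10, 4 and 2 in treatment against control at days 10 and 15, 4 and 1 between days in control and model mice, and 1, 3 and 3 for the changes between days of model against control, treatment against model and treatment against control. The shares of tested genes called with the weights are not given here, so these counts have none to be set against. With median-of-ratios scaling the count among the 8 was 2 between days in control mice. Without the 4 libraries of low Y-linked level, chosen after seeing the data (the planned, lower limit left out 0 libraries and was not run), it was 1 in treatment against control at day 10, 1 and 0 between days in control and treatment mice, and 0 for the change of treatment against control.

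Turned signs, none of them called, were as follows. Median-of-ratios scaling gave 0.012 for Sgk1 and 0.022 for Nr3c1 in treatment against control at day 10 and 0.0081 for Tsc22d3 between days in model mice. Mt2 between days in control mice was -0.0030 with a common total and -0.12 with quantile normalization. Fkbp5 between days in treatment mice was 0.043 with array weights. Without the 4 libraries, Sgk1 was -0.19 in treatment against model at day 15. In treatment against control at day 15, Fkbp5 was then -0.63, Zbtb16 -0.29, Sgk1 -0.33, Mt1 -0.22 and Mt2 -0.17. Between days in treatment mice, Sgk1 was then -0.14 and Klf9 0.17.

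Leaving out 1 library at a time, the count of called genes ranged from 2 to 4 and from 0 to 3 in model against control at days 10 and 15, from 0 to 2 in treatment against control at both days, from 0 to 1 between days in control mice, from 1 to 4 in treatment mice and from 0 to 1 for the change of treatment against control. Differences whose sign turned ranged in treatment against control at day 10 from -0.11 to 0.46 (Zbtb16), -0.11 to 0.010 (Sgk1), -0.038 to 0.083 (Klf9) and -0.10 to 0.025 (Nr3c1), and at day 15 from -0.088 to 0.25 (Fkbp5), -0.071 to 0.20 (Zbtb16) and -0.062 to 0.21 (Sgk1). Tsc22d3 ranged from -0.053 to 0.24 in model against control at day 15. Between days, Mt2 ranged from -0.034 to 0.16 in control mice, Tsc22d3 from -0.27 to 0.021 and Klf9 from -0.0060 to 0.18 in model mice, and Fkbp5 from -0.25 to 0.094 and Klf9 from -0.23 to 0.0065 in treatment mice.

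Same-numbered mice were not treated as pairs: no comparison had all 4 same-numbered pairs correlated above 0.1 (r from -0.631 to 0.509). So few pairs cannot settle whether the numbers mark something shared. In treatment against model at day 10, r ran from 0.055 to 0.450, and 4 of 8 libraries matched their own number best. At day 15 this held for 0 of 8. With a replicate block, 4 of the 8 genes were called in model against control at day 10 and 3 at day 15, and the call of no other comparison among the 8 moved in number. Over all genes the block gave 1871 calls against 1803 in model against control at day 10, and 26 against 41 in treatment against control at day 15. Of the scalings, 1 moved the median of all genes by over 0.1: median-of-ratios, between days in model mice, from -0.0833 to 0.0198. Relative to the median, the 8 genes there ranged from -0.097 to 0.64 and from -0.087 to 0.66 with that scaling. Over all genes and alternatives, the number of calls ranged at days 10 and 15 from 536 to 4927 against 1803 and from 363 to 4592 against 1408 in model against control, from 10 to 1502 against 25 and from 0 to 3845 against 2563 in treatment against model, and from 83 to 4485 against 423 and from 0 to 2665 against 41 in treatment against control. Between days it ranged from 99 to 3683 against 627 in control, 8 to 3347 against 1104 in model and 425 to 2609 against 1257 in treatment mice.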
